A study of Rattus norvegicus with 24 samples.

Results

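Nasal tissue of rats that had inhaled formaldehyde for 28 days was compared with nasal tissue of rats kept on room air for the same time. The comparison rests on 6 of the 24 arrays of the series, 3 exposed and 3 control, which were chosen by their titles and not by any measured value. All animals were male Fischer rats of about 8 weeks at the start of the study. The exposed rats breathed 2 ppm formaldehyde, vaporised from isotope-labelled paraformaldehyde, for 6 hours a day in nose-only tubes, and the control rats sat in the same kind of tube with room air. Tissue was taken from the maxilloturbinate after the last exposure, and its total RNA was hybridised to Affymetrix arrays. Each value is a normalised intensity of a probe set, given here on the log2 scale, so a difference of 1 is a doubling. Nothing in the labels says that the replicates are separate animals. The p-values therefore measure only how far these samples spread, which may in part be technical. In whole tissue, fewer cells of a type and less RNA per cell cannot be told apart.

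The front of the nasal cavity is the site where an inhaled water-soluble gas such as formaldehyde is taken up. The maxilloturbinate carries a respiratory lining of ciliated, secretory and basal cells, over glands, vessels and resident macrophages, while the sensory olfactory lining lies farther back. Formaldehyde reacts with protein and DNA, and tissue disposes of it through glutathione-dependent oxidation and through aldehyde dehydrogenases.

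The labelled tissue was checked against cell type markers, of which 30 of 38 were measured and tested. The respiratory secretory protein Bpifa1 was at 12.69 to 13.01 on the 6 arrays, and Foxj1, the transcription factor of motile cilia, was at 8.74 to 9.15. The same tissue held RNA of other cells: Omp, the marker of mature olfactory neurons, was at 8.15 to 11.85, Cyp2g1 of the olfactory sustentacular cells at 9.62 to 12.95, and the matrix protein Dcn at 11.36 to 12.60. The samples are described here as nasal tissue rather than as epithelial cells alone. Among the markers not tested were Dnah5, Krt5, Scgb1a1, Muc5ac, Muc5b and Myh2. Of these, the secretory marker Scgb1a1 and the muscle marker Myh2 were measured, but were too dim for the filter given with the methods.

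The 3 control arrays differed from each other more than the exposed arrays did. The median SD over probe sets was 0.211 in the control group and 0.0962 in the exposed group, and 80.9% of probe sets had the larger SD in the controls. Control array 1 lay at least 2-fold from the median of the other 5 arrays in 460 of 12211 named genes, 393 of them lower, and control array 3 did so in 252, against 15 for control array 2 and 9 to 26 for the exposed arrays. Control array 1 had little olfactory RNA: Omp was 8.15 there and 10.89 to 11.85 elsewhere, the odour-gated channel Cnga2 was 6.23 against 9.63 to 10.82, and Cyp2g1 was 9.62 against 12.57 to 12.95. It was also high in the squamous keratin Krt4, at 9.67 against 6.26 to 7.22. Control array 3 was apart in another way, with a narrower spread of log2 intensities (interquartile range 1.99, against 2.20 to 2.37 on the other 5 arrays) and correlations with the other arrays of 0.952 to 0.974, close to the 0.952 to 0.9752 of control array 1, while the exposed arrays correlated at 0.989 to 0.991 with each other. Results are therefore given for all 6 arrays and, where it changes a call, without control array 1. Without control array 3 in its place, only 3 of 21910 probe sets passed an adjusted p of 0.05 in limma. Calls made without control array 1 therefore depend on which array is left out.

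**Figure D1:**
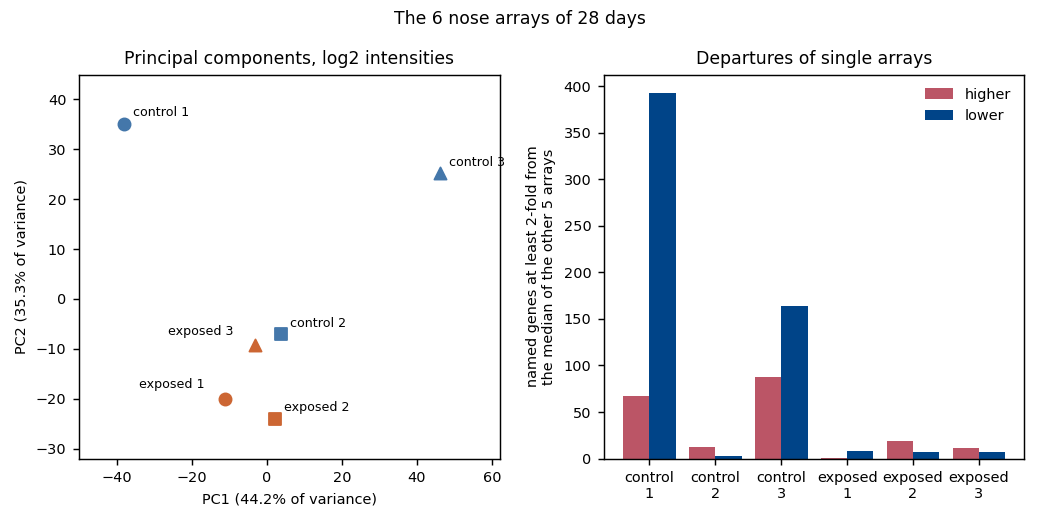
Left, the first and second principal components of the log2 intensities of the 6 nose arrays of 28 days (blue, room air; orange, formaldehyde; shape, replicate number), with control array 1 and control array 3 far from the other 4. Right, the number of named genes (y axis) in which an array lay at least 2-fold above (red) or below (blue) the median of the other 5 arrays, largest for control array 1 with 393 lower and 67 higher genes.

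With all arrays, 1 of 21910 probe sets passed an adjusted p of 0.05 in limma (0.00456% lower and 0.0% higher). This probe set, 10886599, has no gene name in the annotation used here. It was at 7.91, 8.27 and 7.84 in control arrays 1, 2 and 3 and at 6.53, 6.67 and 6.72 in exposed arrays 1, 2 and 3. The groups did not overlap, and the probe set fell by 1.36 ± 0.127 (SE, n = 3 against 3; limma adjusted p = 0.00862). The call was lost without any single exposed array (limma adjusted p = 0.0613 to 0.0963), with only the 6 arrays of 28 days in the fit (limma adjusted p = 0.576) and with the replicate numbers as a block (limma adjusted p = 0.248). No named gene passed the adjusted threshold with all arrays. At an unadjusted p under 0.05, 3385 probe sets (15.4%) differed, and among named genes 7.27% were higher and 9.76% lower in the exposed group. The estimate of the spread is shared with the 7-day nose arrays, which vary less. Every SE given here is limma's, from that shared estimate. It is not the SE of the printed 28-day values alone, and can be smaller where the controls lie far apart. With the 28-day arrays alone, 0 probe sets passed limma's adjusted threshold and 1771 had an unadjusted p under 0.05.

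The largest difference among the genes chosen for the smallest p was that of Clca1, a secreted protease of mucous cells. Clca1 was at 11.10, 9.998 and 8.39 in control arrays 1, 2 and 3 and at 5.74, 5.71 and 6.38 in the exposed arrays. Every control array was above every exposed array, and the difference was −3.89 ± 0.63 (SE; limma adjusted p = 0.0793). The exposed values lay under 6.61, the mean level over the 12 nose arrays below which probe sets were left out, and the mean of the other 3 nose groups was 6.26. Clca1 was thus tested only because of its 28-day controls, so that its difference is a description, and no fold is given against values this low. In the 7-day nose arrays, which lie on another intensity scale, Clca1 was at 6.39, 6.43 and 6.08 in the controls and at 5.82, 7.79 and 5.98 in the exposed arrays. Slpi, a protease inhibitor of mucosal secretions, was at 10.05, 10.29 and 9.37 in the controls and at 8.66, 8.54 and 8.57 in the exposed arrays. Its groups did not overlap and it differed by −1.31 ± 0.21 (SE; limma adjusted p = 0.0793). Calcb, the beta form of the sensory neuropeptide CGRP, was at 9.08, 8.18 and 7.88 in the controls and at 6.84, 6.47 and 6.70 in the exposed arrays, again with no overlap, a difference of −1.71 ± 0.27 (SE; limma adjusted p = 0.0793).

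Of the other 9 genes with the smallest p among those at least 1.5-fold lower, Txndc12, an oxidoreductase of the endoplasmic reticulum, was at 9.43, 9.64 and 9.67 in the controls and at 8.97, 8.98 and 8.94 in the exposed arrays (difference −0.61 ± 0.08, SE). Kdelr3, a receptor that returns proteins to the endoplasmic reticulum, was at 8.43, 8.64 and 8.93 against 7.77, 7.78 and 7.74 (difference −0.91 ± 0.14, SE). Hs3st1, which sulphates heparan chains in the Golgi, was at 10.30, 10.50 and 10.19 against 9.65, 9.68 and 9.64 (difference −0.67 ± 0.10, SE). In each of the 3 genes the exposed arrays lay close together and under all controls. Tyrobp, an adaptor of myeloid receptors, was at 9.40, 9.17 and 9.36 against 8.60, 8.80 and 8.53, Mpeg1, which makes pores in engulfed bacteria, at 8.05, 7.82 and 8.26 against 7.24, 7.19 and 7.20, and Rgs18, a regulator of G protein signalling in blood cells, at 6.68, 6.68 and 7.06 against 5.86, 6.12 and 5.53. Rgs18 passed the filter through its 7-day controls (mean 7.38, and 6.49 over the other 3 groups). Far1, which makes fatty alcohols, Clec11a, a secreted growth factor of bone, and Ccn3, a matricellular protein, differed by −0.61, −0.69 and −0.76. The adjusted p of all 12 genes was 0.068 to 0.0793 in limma with all arrays, under 0.05 without control array 1 and under 0.05 after quantile normalization of the nose arrays, and 0.248 with the replicate block.

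On the other side, the gene with the smallest p was Dmc1, a recombinase known from meiosis, at 6.57, 6.82 and 6.57 in the controls and 7.28, 7.41 and 7.53 in the exposed arrays (difference 0.75 ± 0.11, SE; limma adjusted p = 0.068). Dmc1 was the only named gene past the threshold in this direction after quantile normalization (limma adjusted p = 0.0452). Metallothionein Mt1, which binds zinc and cadmium, was at 10.68, 10.62 and 9.83 in the controls and at 11.43, 11.12 and 11.51 in the exposed arrays, a difference of 0.98 ± 0.20 (SE; 1.97-fold; limma adjusted p = 0.106); its second probe set differed by 1.01. Control array 3 was the lowest of the 6 in Mt1, and all exposed arrays were above all controls. Of the other 10 genes Mns1, a filament protein known from sperm flagella, was at 7.83, 7.89 and 7.28 against 8.39, 8.63 and 8.34 (difference 0.79 ± 0.15, SE), and Gas8, a subunit of the dynein regulatory complex, was at 8.43, 8.80 and 8.22 against 9.10, 9.48 and 9.14 (difference 0.76 ± 0.16, SE). Traf3ip1, Ttll3 and Dctn1 differed by 0.78, 0.63 and 0.64, and the remaining Tmem37, Cpsf2, Srcin1, Ccdc187 and Abhd16a by 0.63 to 0.88. The adjusted p of the 12 genes was 0.068 to 0.113 in limma with all arrays, and 7 of them (Dmc1, Tmem37, Mns1, Cpsf2, Mt1, Traf3ip1 and Abhd16a) were under 0.05 without control array 1.

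**Figure D2:**
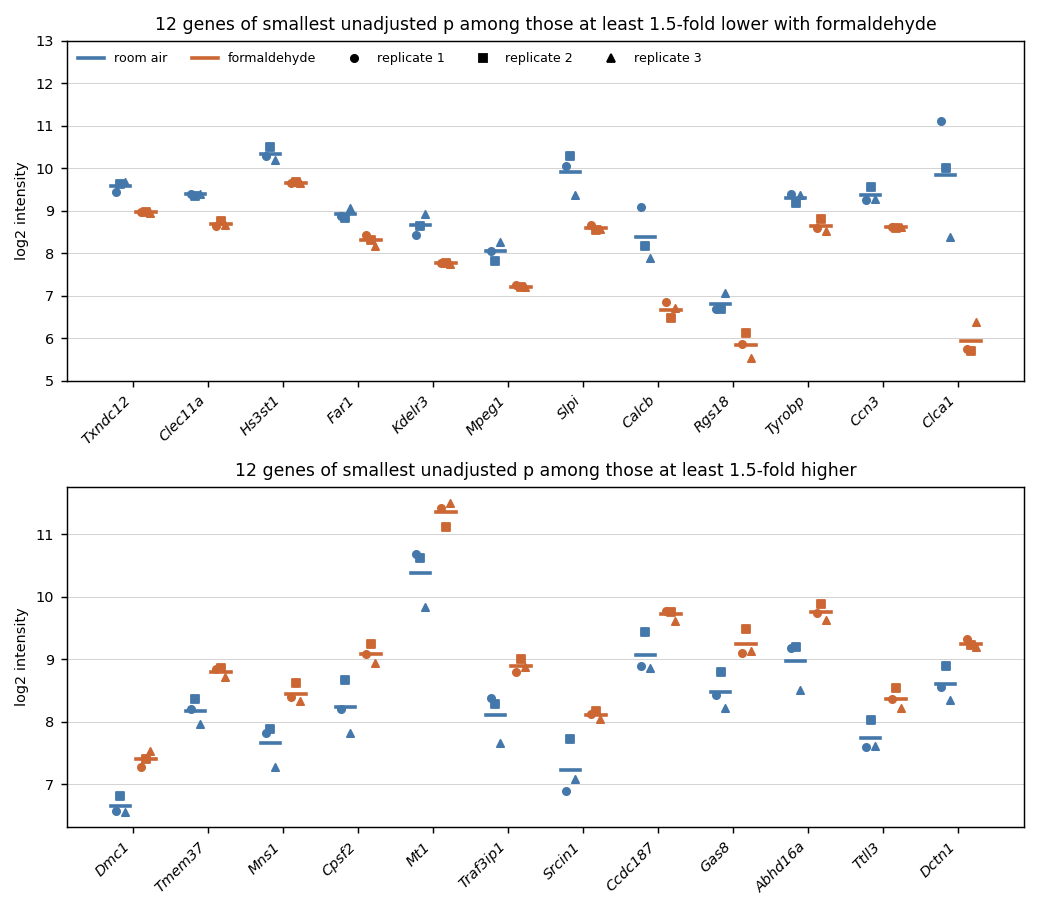
Log2 intensity (y axis) of the 12 genes with the smallest unadjusted p among those at least 1.5-fold lower (upper panel) and at least 1.5-fold higher (lower panel) with formaldehyde; points are arrays, shapes replicate numbers, short lines group means, blue room air and orange formaldehyde. Clca1 spans 8.39 to 11.10 in the controls and 5.71 to 6.38 in the exposed arrays, while the other genes shift by 0.61 to 1.71.

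Gene groups were described by counts over their measured members beside shares of all 12211 named genes, of which 7.27% were higher and 9.76% lower at an unadjusted p under 0.05, 54.4% had a difference above 0 and whose median difference was 0.02. No member of the 34 lists passed the adjusted threshold with all arrays, so the counts are at an unadjusted p under 0.05. Of all 12211 named genes, 369 passed the filter only through the group where they are highest. Where a list held several such members, its count without them is given as well. Of 957 genes in a list, 28 stand in over 1 list, among them Cxcl10, Lyz2 and Lcn2. The lists are therefore not independent of each other. Krt4, Per3, Dbp, Cry2, Bmal1, Fkbp5, Klf13, Ftl1, Fcgr2b, Clec7a, Adgre1, Il1rn, Il1b, Tnf, Ifi47, Usp18, Psmb9, Tff1, Tff2, Creb3l1 and Krt10 are not in the naming rule given with the methods: they were picked with their values already known.

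The circadian clock list held genes on both sides. The clock runs on a loop in which Bmal1, paired with Clock or Npas2, switches on the Per and Cry genes and the output factors Dbp and Tef through E-boxes, and the Per and Cry proteins then hold Bmal1 back; Bmal1 and Npas2 are in turn switched through ROR elements. Of 18 members 5 were higher and 2 lower, with groups that did not overlap in those 7. The 5 higher genes are 27.8% of the list, against 8.09% of all named genes that were higher without overlap, and the 2 lower ones are 11.1%, near the 10.6% of all named genes that were lower without overlap. Tef was at 8.45, 8.26 and 8.09 in the controls and at 8.89, 8.73 and 8.80 in the exposed arrays (difference 0.54 ± 0.11, SE). Per2 was at 8.73, 8.59 and 8.25 against 9.28, 8.92 and 9.02 (difference 0.55 ± 0.13, SE). In both genes all exposed arrays were above all controls. Per3, Dbp and Cry2 differed by 0.49, 0.34 and 0.32, and Cry2 by 0.17 without control array 3. The lower pair was Bmal1, at 8.73, 8.16 and 8.08 against 7.70, 7.41 and 7.61 (difference −0.75 ± 0.21, SE), and Npas2, at 9.72, 9.58 and 9.16 against 8.82, 8.86 and 8.71 (difference −0.69 ± 0.16, SE). The activators Bmal1 and Npas2 were lower where Per2, Per3, Cry2, Dbp and Tef were higher. The limma adjusted p of the 7 genes was 0.106 to 0.235, and without control array 1 Tef and Per2 rose (limma adjusted p = 0.0181 and 0.0225). The hour at which tissue was taken is not given in the sources used here, and its part in the result was not tested.

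The promoters of 4 of these 7 genes hold the letters of clock elements, and 3 of them are shown, which between them hold each element searched. The sequences are RefSeq's on rat build GRCr8, 250 bases before to 50 after the start of the gene, read 5′ to 3′ on the gene's strand, with matches in capitals. The elements searched on both strands were the ROR element AGTAGGTNA, the E-box CACGTG, the related CACGTT and the D-box TTATGTAA; they do not overlap each other here. The ROR element was first searched with 1 more A in front, which both sites of Bmal1 have. Of 33469 rat promoters of this length, 0.604% hold the ROR element, 6.42% the E-box, 4.83% CACGTT and 0.893% the D-box.
Bmal1 chr1:176766078-176766377 on the plus strand, with ROR elements at −54 and −18: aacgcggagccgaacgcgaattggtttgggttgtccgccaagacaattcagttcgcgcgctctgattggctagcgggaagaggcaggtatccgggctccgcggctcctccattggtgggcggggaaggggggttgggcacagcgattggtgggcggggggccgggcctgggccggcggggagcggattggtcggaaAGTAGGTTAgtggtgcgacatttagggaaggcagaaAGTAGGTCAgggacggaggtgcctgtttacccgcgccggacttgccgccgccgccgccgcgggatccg
Per2 chr9:99496944-99497243 on the minus strand, with the D-box at −192 and CACGTT at −62: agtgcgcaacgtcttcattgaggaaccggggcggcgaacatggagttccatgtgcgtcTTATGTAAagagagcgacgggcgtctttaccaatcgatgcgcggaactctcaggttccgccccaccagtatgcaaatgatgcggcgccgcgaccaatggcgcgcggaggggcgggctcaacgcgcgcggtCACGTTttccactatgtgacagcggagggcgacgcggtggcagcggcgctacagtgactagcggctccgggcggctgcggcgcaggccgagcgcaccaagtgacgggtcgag
Tef chr7:115206577-115206876 on the plus strand, with the E-box at −198: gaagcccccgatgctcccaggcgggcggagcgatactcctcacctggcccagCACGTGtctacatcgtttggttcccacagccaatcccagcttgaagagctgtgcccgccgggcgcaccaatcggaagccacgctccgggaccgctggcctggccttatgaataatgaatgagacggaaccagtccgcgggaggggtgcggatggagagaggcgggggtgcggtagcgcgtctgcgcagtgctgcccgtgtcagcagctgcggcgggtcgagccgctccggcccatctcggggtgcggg
Cry2 held CACGTT at −212, and no match lay in the windows of Npas2, Per3 and Dbp. A match is a description of letters and not of a bound site.

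**Figure D3:**
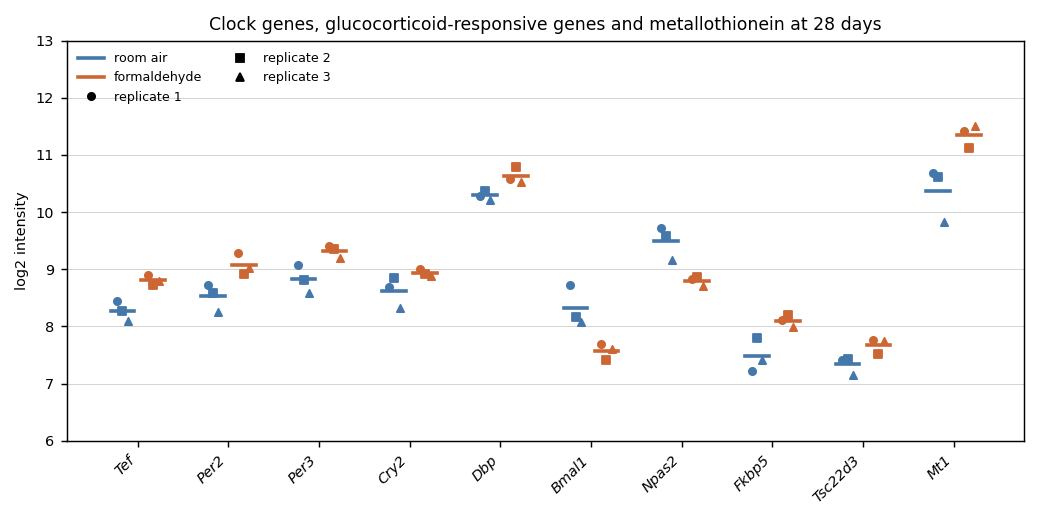
Log2 intensity (y axis) of clock genes, of the glucocorticoid-responsive genes Fkbp5 and Tsc22d3 and of Mt1 on each array at 28 days (blue, room air; orange, formaldehyde; shapes, replicate numbers; short lines, group means). The exposed arrays are above all controls in Tef, Per2, Per3, Cry2, Dbp, Fkbp5, Tsc22d3 and Mt1 and under all controls in Bmal1 and Npas2.

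Of 24 glucocorticoid-responsive genes 4 were higher (16.7%) and 1 lower (4.17%), and the median of 0.11 was 0.00 without control array 3. The higher ones were Mt1, Fkbp5, Tsc22d3 and Klf13. Fkbp5, a chaperone that dampens the glucocorticoid receptor, was at 7.22, 7.80 and 7.42 against 8.12, 8.19 and 7.98 (difference 0.62 ± 0.18, SE), and Tsc22d3, also known as GILZ, was at 7.42, 7.43 and 7.15 against 7.76, 7.52 and 7.74 (difference 0.34 ± 0.10, SE). Klf13 differed by 0.42 (0.21 without control array 3), and the lower gene was Lcn2, an iron-binding protein of inflamed epithelium (difference −0.54). Mt1 also stands in the NRF2 list. Of these 24 genes Mt1 alone passed limma's adjusted threshold without control array 1 (adjusted p = 0.0196).

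The promoter of Mt1 is shown because it carries a run of metal response elements. The core letters searched were TGCACNC and TGCGCNC on both strands, found in 24.2% of the 33469 promoters, and the window of Mt1 held 6 matches, from −176 to −55.
Mt1 chr19:10832926-10833225 on the minus strand: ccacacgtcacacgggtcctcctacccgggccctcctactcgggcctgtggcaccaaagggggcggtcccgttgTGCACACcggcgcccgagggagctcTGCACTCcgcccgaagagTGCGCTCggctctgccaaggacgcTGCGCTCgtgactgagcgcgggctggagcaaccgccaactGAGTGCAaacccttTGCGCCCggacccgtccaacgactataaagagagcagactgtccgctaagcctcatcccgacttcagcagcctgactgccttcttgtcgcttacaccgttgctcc

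Genes that dispose of aldehydes showed no common direction. Of 30 members 2 were higher and 2 lower (6.67% each), and the median was −0.04. Aldh9a1, which oxidises aminoaldehydes, was at 10.13, 10.32 and 9.86 against 9.65, 9.62 and 9.62 (difference −0.48 ± 0.12, SE; limma adjusted p = 0.124), and Cbr1, a carbonyl reductase, was at 9.94, 10.39 and 10.01 against 10.42, 10.78 and 10.35 (difference 0.40 ± 0.15, SE). Aldh2, the mitochondrial enzyme that also takes formaldehyde, was at 10.71, 10.16 and 8.80 in the controls and 10.80, 10.53 and 10.56 in the exposed arrays; control array 3 was the lowest by far, and the difference was 0.74 ± 0.35 (SE), 0.19 without control array 3 and 1.15 without control array 1. The differences of Esd, which completes the glutathione route, Cat, Aldh1a1 and Aldh3a1 were 0.00, −0.01, 0.06 and −0.16, with SEs of 0.13 to 0.31. Of 30 NRF2 targets 4 were higher and 2 lower, with a median of −0.01. Gclm, the regulatory subunit of glutathione synthesis, differed by −0.46, Txn1 by −0.24 and the ferritin chain Ftl1 by 0.35.

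Genes of macrophages lay mostly on the lower side. Of 35 members 18 were lower (51.4%) and 0 higher, 32 lay below 0, and the median was −0.29 with all arrays, −0.22 without control array 1 and −0.19 with the mean of the olfactory neuron list as a covariate. Without the 2 members that passed the filter only through the group where they are highest, 17 of 33 were lower. The mean level of the list was 8.02, 7.82 and 7.86 in control arrays 1, 2 and 3 and 7.58, 7.61 and 7.56 in the exposed arrays, with no overlap. Beside Mpeg1 and Tyrobp, Lilrb4, an inhibitory receptor, was at 7.58, 7.41 and 7.65 against 6.89, 6.90 and 6.93 (difference −0.64 ± 0.10, SE). Fcgr2b, the inhibitory Fc receptor, was at 7.43, 7.46 and 7.89 against 6.91, 6.90 and 6.86 (difference −0.71 ± 0.12, SE), and Clec7a, the beta-glucan receptor, was at 9.04, 8.86 and 8.99 against 8.10, 8.42 and 8.35 (difference −0.67 ± 0.12, SE). Without control array 1, 9 of the 35 fell past limma's adjusted threshold (25.7%, against 3.07% of all named genes), among them Adgre1 and Lyz2, with differences of −0.45 and −0.65 over all arrays.

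Chemokines and cytokines showed the same side. Of 43 members 13 were lower (30.2%) and 0 higher, the median was −0.20 (−0.11 with the olfactory covariate), and 16 had groups that did not overlap, all lower (10.6% of all named genes were lower without overlap). Ccl21, which guides dendritic cells and lymphocytes to lymph vessels, was at 9.56, 9.07 and 9.44 against 8.56, 8.50 and 8.56 (difference −0.82 ± 0.14, SE; limma adjusted p = 0.0793). Ccl2, which draws monocytes, was at 9.24, 8.73 and 10.15 against 7.98, 8.01 and 8.13 (difference −1.33 ± 0.28, SE; 2.52-fold lower; limma adjusted p = 0.107). The exposed values of both genes lay close together, and control array 3 was the highest for Ccl2. Il1rn, the antagonist of interleukin 1, was at 7.89, 7.00 and 7.60 against 6.51, 6.18 and 6.48, and the eosinophil chemokine Ccl11, Il1b and Tnf differed by −0.59, −0.45 and −0.39. Il1b differed by −0.21 without control array 3 and Tnf by −0.24 without control array 1. Without control array 1 Ccl21, Ccl2 and Cxcl10 fell (limma adjusted p = 0.0239, 0.0409 and 0.0421). Without control array 3 in its place none of the 3 passed (limma adjusted p = 0.104, 0.1004 and 0.123).

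Interferon-response genes were lower in 17 of 45 members (37.8%) and higher in 1, Mx2 (difference 0.38; 0.22 without control array 3). The median was −0.24, −0.18 without control array 1 and −0.11 with the olfactory covariate. The mean of the list was 7.95, 7.72 and 7.68 in the controls and 7.55, 7.50 and 7.52 in the exposed arrays. Psmb10, an immunoproteasome subunit, was at 8.58, 8.57 and 8.57 against 8.16, 8.10 and 8.08 (difference −0.46 ± 0.08, SE; limma adjusted p = 0.0945). Gbp2, a guanylate-binding GTPase of host defence, was at 8.29, 8.04 and 8.21 against 7.51, 7.62 and 7.58 (difference −0.61 ± 0.11, SE; limma adjusted p = 0.0945), and Cxcl10, an interferon-induced chemokine, was at 7.72, 7.55 and 7.60 against 7.23, 6.94 and 6.86 (difference −0.62 ± 0.12, SE; limma adjusted p = 0.105). In the 3 genes all exposed arrays were under all controls. Ifi47, Usp18 and Psmb9 differed by −0.80, −0.73 and −0.51.

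The promoters of Cxcl10, Gbp2 and Psmb10 hold the core letters of the interferon-stimulated element, GAAANNGAA, searched on both strands and found in 9.71% of the 33469 promoters. They are shown because these 3 members of the list had the smallest p. A longer form searched first, with AC after these letters, stands in Cxcl10 and Gbp2 and not in Psmb10; the window of Ifi47 held no match.
Cxcl10 chr14:15988816-15989115 on the plus strand, match at −243: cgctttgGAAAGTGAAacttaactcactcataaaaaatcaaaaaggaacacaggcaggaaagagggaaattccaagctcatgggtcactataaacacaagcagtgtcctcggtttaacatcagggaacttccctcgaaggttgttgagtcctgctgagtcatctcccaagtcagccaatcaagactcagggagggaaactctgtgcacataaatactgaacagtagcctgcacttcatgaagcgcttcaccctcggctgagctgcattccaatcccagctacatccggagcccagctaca
Gbp2 chr2:234005477-234005776 on the plus strand, match at −30 on the other strand: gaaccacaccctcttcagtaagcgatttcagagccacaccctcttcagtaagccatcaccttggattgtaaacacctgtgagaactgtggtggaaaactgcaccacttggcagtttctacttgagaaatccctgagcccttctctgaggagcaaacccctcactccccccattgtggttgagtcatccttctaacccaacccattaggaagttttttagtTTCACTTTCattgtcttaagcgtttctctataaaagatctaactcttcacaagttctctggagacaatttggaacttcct
Psmb10 chr19:50743243-50743542 on the minus strand, with matches at −73 and −67, which overlap, and at −17: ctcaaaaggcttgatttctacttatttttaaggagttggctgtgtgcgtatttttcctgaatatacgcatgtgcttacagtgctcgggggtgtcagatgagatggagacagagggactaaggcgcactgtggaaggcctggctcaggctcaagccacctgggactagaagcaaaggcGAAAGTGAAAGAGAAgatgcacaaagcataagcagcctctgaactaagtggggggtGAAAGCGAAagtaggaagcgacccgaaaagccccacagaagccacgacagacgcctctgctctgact

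Other white blood cell lists lay on the same side to differing degrees. Of 13 neutrophil genes tested 6 were lower (46.2%) and 0 higher, with a median of −0.39 (−0.23 with the olfactory covariate); Alox5ap, which serves leukotriene synthesis, differed by −0.48 and Csf3r, the G-CSF receptor, by −0.40. Of 17 genes of MHC class II presentation 4 were lower (23.5%) and 0 higher (median −0.15), led by RT1-DMb at 8.42, 8.49 and 8.63 against 8.09, 8.01 and 7.96. B cell genes were lower in 3 of 16 (18.8%) and T cell genes in 4 of 22 (18.2%), against 9.76% of all named genes, with medians of −0.15 and −0.10. Without members that passed the filter only through the group where they are highest, the counts were 3 of 15 and 3 of 19. Blnk and Thy1 differed by −0.35 and −0.41. Of 16 genes of NK and cytotoxic cells 0 were past an unadjusted p of 0.05 in limma, 0 passed the adjusted threshold, and the median was −0.07. Il1rl1, the interleukin 33 receptor in the list of mast cells and type 2 responses, was at 6.96, 6.89 and 7.04 against 6.33, 6.23 and 6.59.

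Among the epithelial lists, mucous and secretory genes were lower in 11 of 26 members and higher in 0, with a median of −0.21. Clca1 and 2 other members passed the filter only through the group where they are highest; of the other 23 members 9 were lower, with a median of −0.17. Beside Slpi, described above, Lyz2 was lower, with 10.34, 10.06 and 10.59 against 9.64, 9.83 and 9.55. Lyz2 is the same gene that was counted in the macrophage list. The trefoil peptides Tff2 and Tff1 differed by −0.64 and −0.48 (−0.41 and −0.28 without control array 1) and Creb3l1, a regulator of secretory capacity, by −0.41. Bpifa1 was not lower: its difference was 0.15 ± 0.07 (SE). The means of the list were 9.41, 9.32 and 9.19 in the controls and 8.996, 8.92 and 9.06 in the exposed arrays.

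Genes of basal and squamous cells had the lowest median of the lists, −0.55, and here control array 1 weighed heavily. Without it the median was −0.20. The means of the list were 8.88, 7.74 and 8.01 in the controls and 7.69, 7.53 and 7.69 in the exposed arrays. Sprr3, a cornified envelope protein, was at 9.82, 6.98 and 8.31 against 6.55, 6.47 and 6.59 (difference −1.84 ± 0.57, SE), and Krt10, a keratin of the upper epidermis, was at 9.72, 6.84 and 7.69 against 6.39, 6.38 and 6.78. Lypd3, a membrane protein of squamous cells, was more even, at 8.35, 8.19 and 8.26 against 7.59, 7.86 and 7.62 (difference −0.58 ± 0.15, SE). Of 28 members 8 were lower (28.6%) and 1, Dapl1, higher (0.47, and 0.31 without control array 3). Without the 2 members that passed the filter only through the group where they are highest, 7 of 26 were lower. No member passed limma's adjusted threshold without control array 1.

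Ciliated cell genes were higher in 7 of 31 members (22.6%) and lower in 0 at an unadjusted p under 0.05. The groups did not overlap in 7 higher and 3 lower members, and without control array 1 limma called 1 higher and 1 lower. The median was 0.12, 0.09 without control array 1 and 0.06 without control array 3. Drc1, another subunit of the dynein regulatory complex, was at 7.90, 8.66 and 7.93 in the controls and at 9.003, 9.05 and 8.90 in the exposed arrays (difference 0.82 ± 0.19, SE). Ccdc39, which sets the length of the axonemal repeat, was at 7.78, 8.09 and 7.87 against 8.23, 8.46 and 8.26 (difference 0.40 ± 0.11, SE). Foxj1 differed by 0.19 ± 0.09 (SE). The means of the list overlapped between the groups, 8.47, 8.67 and 8.47 against 8.65, 8.71 and 8.62.

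The lists of olfactory neurons and their progenitors had the highest medians, which were much lower without control array 1. For 25 genes of mature olfactory neurons the median was 0.94 with all arrays and 0.23 without control array 1, and the means of the list were 7.82, 9.81 and 9.57 in the controls and 9.86, 10.14 and 9.76 in the exposed arrays. For 23 genes of progenitors and immature neurons the medians were 0.42 and 0.08. Of the 25 genes 7 were higher (28.0%) and 0 lower, and Kirrel3, Rtp2 and Cngb1 were the nearest to the threshold. Kirrel3, an axon-sorting adhesion molecule, was at 7.24, 7.93 and 7.44 against 8.22, 8.43 and 8.07, and Rtp2, which carries odorant receptors to the surface, was at 7.24, 7.91 and 7.54 against 8.03, 8.19 and 8.06. Cngb1, a subunit of the odour-gated channel, differed by 0.72 with all arrays and by 0.42 without control array 1. Omp differed by 1.40 ± 0.74 (SE), with control arrays 2 and 3 at 11.47 and 10.89 and the exposed arrays at 11.42, 11.85 and 11.44. No member of either list passed limma's adjusted threshold without control array 1. Of 1052 odorant receptor genes measured, 519 passed the filter on the mean of the 12 nose arrays. Of these 519, 12 were higher at an unadjusted p under 0.05, a smaller share than the 7.27% of all named genes, and 0 were lower. Yet 462 of the 519 had a difference above 0, against 54.4% of all named genes. The groups did not overlap in 50 higher and 1 lower (8.09% and 10.6% of all named genes). The median of the 519 was 0.21 with all arrays and 0.04 without control array 1. Of 19 genes of sustentacular cells and Bowman's glands 1 was lower, Hepacam2 (−0.47), and the median was 0.10, and −0.05 without control array 1.

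Of 40 genes of fibroblasts and matrix 12 were lower (30.0%) and 1, Timp3, higher (0.27), with a median of −0.12, and the means of the list were 9.46, 9.35 and 9.25 against 9.19, 9.20 and 9.21. Decorin (Dcn), a proteoglycan that binds collagen, was at 11.88, 12.04 and 12.60 against 11.36, 11.47 and 11.42 (difference −0.76 ± 0.15, SE; limma adjusted p = 0.0991), and it fell in the fit without control array 1 (limma adjusted p = 0.00938). The protease Mmp2 was at 10.67, 10.64 and 10.50 against 10.13, 10.30 and 10.13, and Lum, a related proteoglycan, was at 9.17, 8.55 and 8.65 against 7.96, 8.06 and 8.22. The exposed arrays were under all controls in each of the 3. Without control array 3 the limma adjusted p of Dcn was 0.0535. Endothelial genes were lower in 4 of 35 (11.4%), a share near the 9.76% of all named genes, with Pecam1 at 8.52, 8.30 and 8.44 against 7.75, 7.77 and 7.96 and Cdh5 and Emcn differing by −0.33 and −0.50; the median of −0.12 was 0.00 without control array 1. Bone and cartilage genes were lower in 6 of 30 (20.0%), led by the collagenase Mmp13 at 8.76, 8.70 and 8.87 against 7.26, 7.58 and 8.17, with Alpl and Acan differing by −0.55 and −0.52. How much turbinate bone and underlying stroma each sample held was not tested. Among the sensory nerve genes Npy, a sympathetic neuropeptide, was on the opposite side to Calcb, at 8.06, 8.45 and 8.60 against 9.38, 9.09 and 8.97, while Gfra3, a receptor subunit for artemin, differed by −0.47.

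Genes of DNA repair were lower in 7 of 29 members (24.1%) and higher in 1, with a median of 0.00. The higher one was Dmc1, and the lower ones included Ogg1, the glycosylase for oxidised guanine, at 7.57, 8.00 and 7.87 against 7.44, 7.39 and 7.42 (difference −0.39 ± 0.10, SE), and Ercc3, a helicase of excision repair (−0.32). Ogg1 fell without control array 1 (limma adjusted p = 0.00801). Of 37 proliferation genes 4 were lower (10.8%, near the share of all named genes) and 0 higher, with Pcna at 8.73, 8.76 and 9.004 against 8.55, 8.43 and 8.46. Without the 5 members that passed the filter only through the group where they are highest, 4 of 32 were lower. Of 22 p53 targets 0 were past an unadjusted p of 0.05 in limma with all arrays and 0 passed the adjusted threshold; without control array 1 Rrm2b, a p53-induced subunit of ribonucleotide reductase, rose (limma adjusted p = 0.0187), with control array 1 at 7.59, inside the exposed range of 7.42 to 7.59.

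**Figure D4:**
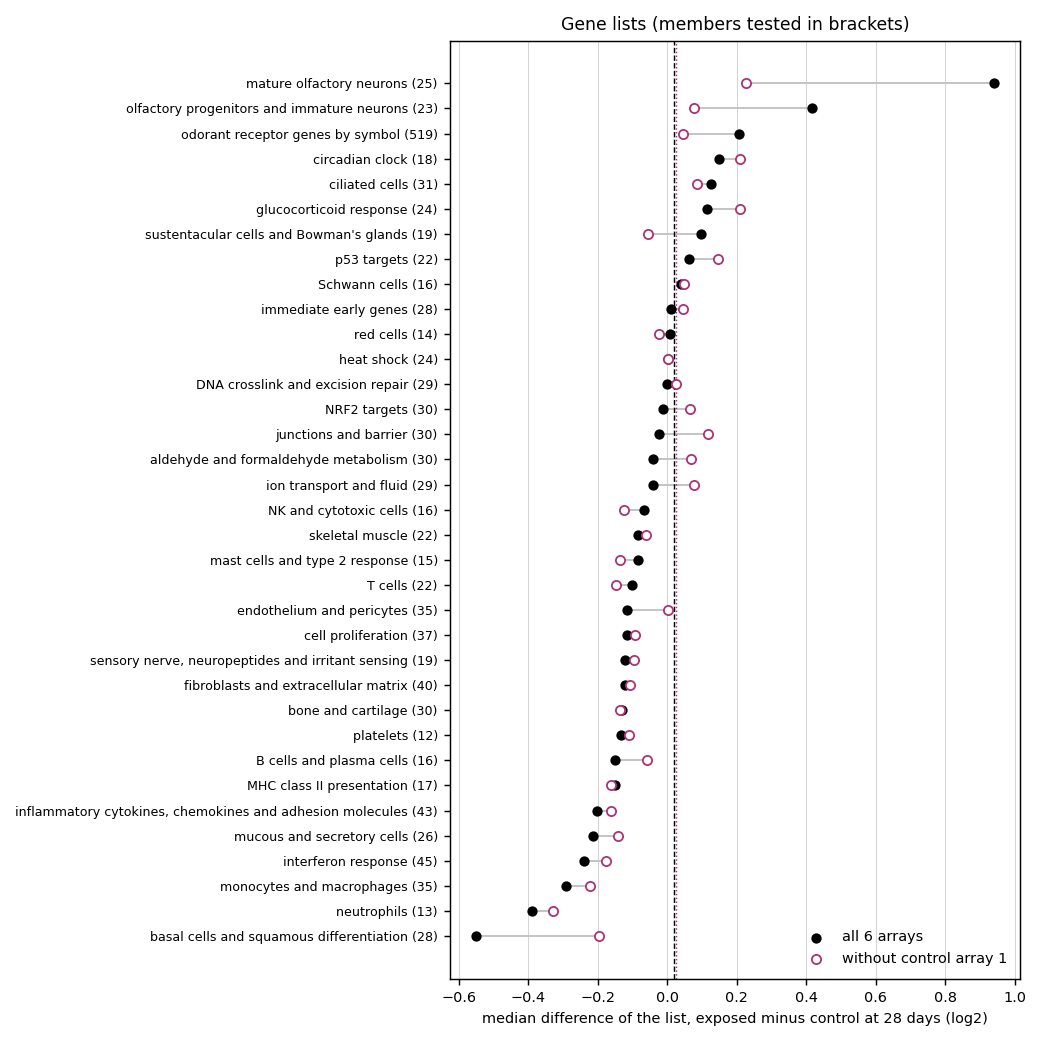
Median difference in log2 intensity, exposed minus control at 28 days (x axis), over the tested members of each gene list (y axis), with all 6 arrays (filled) and without control array 1 (open); the dashed and dotted lines are the medians of all named genes in the same 2 fits. The median of the mature olfactory neurons moves from 0.94 to 0.23 and that of basal and squamous genes from −0.55 to −0.20, while that of monocytes and macrophages moves from −0.29 to −0.22.

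Without control array 1, 1081 probe sets passed limma's adjusted threshold, 466 higher (2.13%) and 615 lower (2.81%). Among the 615 lower calls, control array 1 lay above all 3 exposed arrays in 393 (63.9%, against 36.3% of all probe sets) and under all of them in 63. Among the 466 higher calls it lay under all exposed arrays in 162 (34.8%, against 32.4% of all probe sets) and above all of them in 151. The calls were chosen by the values of these same exposed arrays, which can by itself set the shares apart from those of all probe sets. No conclusion is drawn from these shares. All 42 probe sets called after quantile normalization with the 6 arrays (4 higher, 0.0183%, and 38 lower, 0.173%) were among the 1081. Among named genes the fit without control array 1 called 1.77% higher and 3.07% lower, and quantile normalization called 0.00819% higher and 0.254% lower. Without control array 2 there were 130 calls (0.593%), and without control array 3 there were 3 (0.0137%). Of those 3, 2 were also among the 1081, in the same direction.

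The genes with the largest shifts in the fit without control array 1 were examined array by array. Of the 10 largest falls, Clca1, Calcb, Slpi, Ccl2, Mrpl54, Bloc1s2 and H4c14 also had control array 1 above all exposed arrays. In Ccdc107, Chic2 and Atp5mg it was not: Ccdc107 was at 9.97 in control array 1, 11.20 and 12.17 in control arrays 2 and 3, and 9.68 to 10.04 in the exposed arrays. Control array 3 was the highest array in Bloc1s2, Ccdc107, H4c14, Mrpl54, Chic2 and Atp5mg; Mrpl54, a mitochondrial ribosomal protein, was at 10.19, 10.67 and 11.67 against 9.84, 9.80 and 9.70. Of the 10 largest rises, Mt1, Engase, Dynll2, Nrbp2 and Cirbp had control array 1 under all exposed arrays and Ppm1g had it inside their range, whereas in Pdcd4, Papss1 and Rnf5 it was above all exposed arrays. Pdcd4, an inhibitor of translation, was at 11.48 in control array 1, 10.05 and 9.20 in control arrays 2 and 3, and 10.77 to 10.86 in the exposed arrays. Without control array 3 in place of 1, the differences of Atp5mg, Ccdc107, Chic2, H4c14, Mrpl54, Cirbp, Dynll2, Nrbp2, Papss1 and Ppm1g were smaller than with all arrays by over 1.5 times. Rpl13 had control array 1 at 10.46, inside the exposed range, and its other 6 probe sets differed by −0.08 to 0.00. Histone and ribosomal protein genes such as H4c14 and Rpl13 have near-identical copies, and their values are uncertain for that reason.

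The 28-day differences were set beside those of the 7-day nose arrays, which have control and exposed samples of their own. The arrays of 7 days lie on another intensity scale, with medians of 305 to 312 against 163 to 172 at 28 days, so levels are not compared. Across the 12211 named genes the differences at 28 and 7 days correlated at Pearson r = 0.524 and Spearman rho = 0.470; genes are not independent, and both differences share a probe set. Of 1192 genes lower at 28 days at an unadjusted p under 0.05, 314 were also called lower at 7 days (26.3% of the 28-day genes and 26.4% of the 1190 called at 7 days; 9.75% of all genes were called lower at 7 days), and 3 were called higher. Of 888 genes higher at 28 days, 324 were called higher at 7 days (36.5% of these and 26.5% of the 1222 called at 7 days; 10.01% of all genes), and 3 lower. Mpeg1, Tyrobp, Lilrb4, Slpi, Ccl21, Psmb10 and Gbp2 had fallen at 7 days, by 0.46 to 1.06 (limma adjusted p = 0.00189 to 0.0262). Dmc1, Mns1, Gas8, Traf3ip1 and Mt1 had risen, by 0.63 to 1.03 (limma adjusted p = 0.00103 to 0.0419).

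Other lead genes had little difference at 7 days. Clca1 differed by 0.23 there (limma adjusted p = 0.863), Calcb by −0.27, Txndc12 by −0.06, Hs3st1 by −0.01 and Kdelr3 by −0.28. The difference between durations was itself short of the threshold for each of these (limma adjusted p = 0.112 for Clca1, 0.198 for Calcb, 0.0778 for Txndc12, 0.091 for Hs3st1 and 0.286 for Kdelr3). Clca1 was tested only because of its 28-day controls, and its 7-day values were too low for a fall to show. No conclusion about 7 days is drawn from either p-value of Clca1. Some genes were on opposite sides: Engase, a glycan-releasing enzyme, differed by 0.94 at 28 days and −0.90 at 7 days (limma adjusted p of the difference between durations = 0.0536), and Dbp by 0.34 and −0.52 (0.0891). Tef and Per3 differed by −0.13 and −0.43 at 7 days. The pattern of the clock genes at 28 days did not have the same signs at 7 days for Dbp, Tef and Per3, and the difference between durations was short of the threshold for each (limma adjusted p = 0.0891, 0.145 and 0.157).

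**Figure D5:**
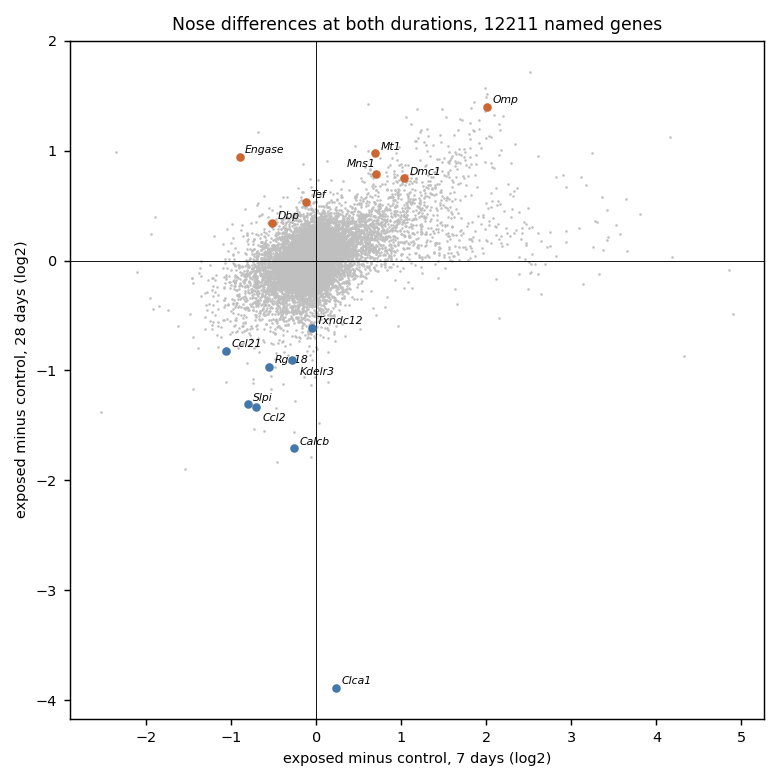
Difference in log2 intensity, exposed minus control, at 7 days (x axis) and at 28 days (y axis) for 12211 named genes (grey), with genes of the text marked (blue, lower at 28 days; orange, higher). Slpi, Ccl2 and Ccl21 lie below 0 on both axes and Mt1, Dmc1 and Mns1 above, Clca1 and Calcb lie near 0 at 7 days and far below 0 at 28 days, and Engase is on opposite sides. Clca1 was tested only because of its 28-day controls, and a fall at 7 days could hardly be seen.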

How the data were processed

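Total RNA of nasal tissue was measured on 12 nose arrays, of which the 6 of 28 days are described here. The authors deposited 1 normalised intensity per probe set and array for 29214 probe sets. The submitters' processing notes name Partek; its version, the background correction, the way of normalizing and the genome build are not given in the sources used for this work. Here log2 was taken of each intensity and nothing else was done to it. Probe sets with a mean over the 12 nose arrays at or above percentile 25 (log2 6.61) were kept, 21910 in all. Gene names came from the platform's table, in which 15310 probe sets carry 1 symbol; a gene with several was represented by the probe set of the highest nose mean. The number of arrays, 3 a group, limits the precision, since arrays give no counting depth.

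A model with 4 group means was fitted to the 12 nose arrays with limma 3.58.1 under R 4.3.3 (lmFit, contrasts.fit, eBayes, default prior). Tests were two-sided, with Benjamini-Hochberg adjustment over all probe sets kept and a threshold of 0.05. The contrasts were exposed minus control at 28 days and the difference of that effect from the one at 7 days. Counts and medians of lists carry no test.

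Genes were named by a rule: the 12 of smallest p on each side among those at least 1.5-fold apart, the 10 largest falls and rises past the threshold without control array 1, the 3 members of each list nearest to the threshold, Aldh2, Esd, Cat, Aldh1a1 and Aldh3a1, any probe set past the threshold, cell type markers, and exceptions within a list. The comparison, the 34 lists and the rule were chosen with earlier results of these data known.

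Alternatives covered the filter, quantile normalization and median centring, each 28-day array left out, the replicate block, the olfactory list mean as a covariate, array weights, another prior, the 28-day arrays alone and means over probe sets. Leaving out control arrays 1 and 3, leaving out the pair numbered 1, and quantile normalization without control array 1 were chosen after seeing the data.

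The labels state no pairing. The main fit is therefore unpaired, and a fit with the replicate numbers as a block is reported beside it. Deviations of same-numbered control and exposed arrays from their group means correlated at r = 0.192, 0.247 and 0.154 at 28 days. Control 1 with exposed 3, 2 with 1 and 3 with 2 gave 0.148, 0.197 and 0.205. At 7 days r of the same-numbered arrays was −0.260, −0.078 and −0.141. These values do not settle whether the numbers pair the arrays. The scripts were tested on simulated data. Sequences are RefSeq's for GRCr8. A probe set naming Adh5 together with another gene was not used here.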

Additional observations from a re-analysis of the deposited data

Results flagged for a closer look

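The effect of exposure at 28 days differed from that at 7 days, by the test of the difference itself, in 22 of 21910 probe sets (0.1%; limma adjusted p under 0.05, 2977 at an unadjusted p under 0.05). Of these 12 were named genes, 11 of them odorant receptors and the other the kinetochore gene Ndc80, named after its values were seen. Ndc80 was at 6.58, 6.88 and 6.76 in the controls and at 6.79, 7.03 and 6.81 in the exposed arrays of 28 days, and at 7.04, 7.16 and 7.05 against 8.55, 8.46 and 8.42 at 7 days. Its effect at 28 days minus that at 7 days was −1.25. Of the 11 receptors 7 passed the filter on low values only through the group where they are highest, so that they had to differ, and no weight is placed on their count. One of these is Or4e5, which was at 5.64, 5.92 and 7.46 against 5.42, 5.49 and 6.66 at 28 days and at 4.69, 5.40 and 5.54 against 9.07, 10.38 and 10.89 at 7 days. The intensity scales of the 2 durations differ, and the part of that in these results was not tested.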

How the results depend on the processing

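The count of probe sets past the threshold at 28 days was 1 with all arrays, and this held with no filter on dim probe sets, the filter from the 28-day arrays, the intensity trend with a robust prior, array weights and means over probe sets. It was 0 with the median as the filter, with the replicate block and with the 28-day arrays alone (limma; 2771, 3303 and 1771 at an unadjusted p under 0.05), 2 with median centring, 42 with quantile normalization and 247 with the olfactory list mean as a covariate. It ran from 0 to 1081 when 1 array was left out, highest without control array 1 and 0 without any exposed array (limma; 2440 to 2658 at an unadjusted p under 0.05). Leaving out control arrays 1 and 3 gave 268, where the lone control is assumed to vary like the other groups, leaving out the pair numbered 1 gave 308, and quantile normalization without control array 1 gave 1776. An adjusted p under 0.1 gave 73, and an unadjusted p under 0.005 with at least 1.5-fold gave 207. The block ended the call of probe set 10886599, and no named gene had a call to lose.

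The count for the difference between 28 and 7 days, 22 with all arrays, was 145 with no filter, 1 with the median as the filter, 1 with quantile normalization, 65 with median centring, 82 with the replicate block, 73 with the olfactory covariate, 14 with the intensity trend and robust prior, 54 with array weights, 14 with the 28-day filter, 57 with means over probe sets and 137 at an adjusted p under 0.1. It ran from 1 to 2640 when 1 array was left out, highest without control array 1. The cause of these changes was not tested.

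Over 123 named genes, probe set 10886599 and their alternatives, 2177 of 2458 pairs of gene and setting kept direction and side of the threshold. Of the rest, 248 passed it in the alternative, 28 changed sign and 5 lost it. These 5 were all for probe set 10886599, which alone had a call to lose. Aldh1a1 was −0.0286 with array weights and ran from −0.190 to 0.305 over the arrays left out. Aldh3a1 was 0.17 with the olfactory covariate, 0.0438 without control arrays 1 and 3, 0.0325 without the pair numbered 1 and 0.136 with quantile normalization without control array 1. It ran from −0.294 to 0.0746 over the arrays left out. Cat was 0.0231 with quantile normalization, 0.25 with the covariate, 0.11 without control arrays 1 and 3, 0.20 without the pair and 0.23 with quantile normalization without control array 1. It ran from −0.18 to 0.21 over the arrays left out. Cyp2g1 was −0.39 with the covariate, −0.11 without control arrays 1 and 3, −0.10 without the pair and −0.10 with quantile normalization without control array 1. It ran from −0.146 to 1.496 over the arrays left out. Esd was −0.00879 with quantile normalization, −0.0157 with median centring, −0.0611 with array weights and −0.0250 without control arrays 1 and 3. It ran from −0.16 to 0.15 over the arrays left out. Mx2 was −0.0845 and Ndc80 −0.00081 without control arrays 1 and 3, and Omp was −0.0181 with the covariate. That covariate is the mean of olfactory neuron genes, and Omp marks the same cells. The loss of its difference there was largely built in, and nothing is concluded from it. Of 108 named genes with an unadjusted p under 0.05, 26 had a difference that moved by over 1.5 times when 1 control array was left out: 10 without control array 1, 2 without control array 2 and 18 without control array 3, some under more than 1. No named gene was called in the fit with all arrays, so none of the genes that changed sign had a call to lose.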

Other observations

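In the gene groups not yet described, 0.0% to 14.3% of members were lower at an unadjusted p under 0.05, and 0.0% to 7.14% higher. The shares of all named genes were 9.76% and 7.27%. Without overlap of the groups, 3 of 12 platelet genes were lower and 1 higher. Of 14 red cell genes 3 were lower and 2 higher without overlap. Immediate early and Schwann cell genes had 0 of either. Of all named genes 10.6% were lower and 8.09% higher without overlap. Of 30 genes of junctions and barrier 4 were lower and 1 higher at an unadjusted p under 0.05, with a median of −0.02, and the simple epithelial keratins Krt8 and Krt18 differed by −0.33 and −0.25. Krt8 was at 10.86, 10.97 and 10.88 in the controls and at 10.64, 10.52 and 10.57 in the exposed arrays, and its second probe set differed by −0.27. Other probe sets of Krt18 differed by −0.52 and −0.18. Of 29 genes of ion transport and fluid 2 were lower, with a median of −0.04. Heat shock genes had a median of 0.00, with 1 of 24 higher and 3 lower. Among 28 immediate early genes 1 was lower, among 22 skeletal muscle genes 2 and among 12 platelet genes 1. Without the 4 skeletal muscle genes that passed the filter only through the group where they are highest, 1 of 18 was lower. Of 14 red cell genes 2 were lower and 1 higher. Of 16 Schwann cell genes 0 had an unadjusted p under 0.05 or an adjusted p under 0.05 in limma.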
